A study of Homo sapiens with 52 samples.

Results

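The RNA-seq libraries of the MCTS1 knockout HEK293T clones #1 and #2 were compared with each other, with wild type HEK293T RNA-seq as the reference level. They were chosen by their labels and number 4 of the 42 libraries with counts, with 2 libraries for each clone and 2 for wild type. HEK293T is a transformed human embryonic kidney line that carries a viral large T antigen. The labels name no treatment for these 3 groups, and the clones differ from wild type by the MCTS1 knockout. Each clone is a line of its own, so a clone stands for the knockout only together with the other clone. How the knockouts were made, and whether replicate libraries came from separate cultures, is not stated in the labels, so p-values measure a spread between libraries that may be technical.

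MCTS1 pairs with DENR in a complex that acts on ribosomes on mRNA, in reinitiation after short upstream reading frames and in the removal of the small subunit after termination. A knockout clone is grown from a single cell. It inherits the chromosome content, the silenced genes and the chance mutations of that cell, and HEK293T is known for an unstable karyotype. A difference between clones with the same knocked-out gene need therefore not be part of the response to the knockout, and whether it is was not tested.

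RNA-seq measured polyadenylated RNA. Ribo-seq, which sequences RNA fragments protected by translating ribosomes, and TCP-seq (translation complex profiling), which sequences fragments protected by ribosomal complexes, were made from the same cell lines. Their libraries took no part in choosing transcripts in RNA-seq and served as further readings of the same clones. The values were counts per transcript version. The deposited files do not pair these identifiers with genes, so transcripts are given by identifier, no gene, chromosome or promoter is named, and the level of MCTS1 itself could not be checked. Many transcripts share reads. The 180196 transcripts with a count in the 6 RNA-seq libraries had 148211 distinct count profiles, and the members of each class below were also counted as groups that share reads.

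The libraries of clone #1 were the deepest in RNA-seq, with totals of 301214608 and 150951436 counts against 79851240 to 89789500 in the other 4. In Ribo-seq they held 193940882 and 148159238 counts against 25785993 to 53386368, and in TCP-seq all 6 libraries (wild type replicates 3 and 4) held 1609303 to 3853825. The RNA-seq pair of clone #1 also stood apart from the 10 other RNA-seq libraries of the series, which include control siRNA and DENR siRNA libraries. In both libraries of clone #1, 155 transcripts (0.0839% of the 184791 with a count) stood at 1 CPM (the count scaled to the library total) or more and at least 4-fold above all 10 others, and 66 (0.0357%) lay at least 4-fold below all of them. The same counts were 0 and 5 (0.00271%) for clone #2, 0 and 0 for wild type and for control siRNA, 3 (0.00162%) and 17 (0.0092%) for DENR siRNA #1, and 0 and 3 (0.00162%) for DENR siRNA #2. Within RNA-seq, a property of clone #1 and a property of its pair of libraries cannot be told apart.

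The clones differed at many transcripts, mostly by little. With edgeR's quasi-likelihood test and a Benjamini-Hochberg adjusted p under 0.05 over 131951 transcripts, 30165 (22.9%) were higher in clone #1 and 30293 (23%) were higher in clone #2, together 45.8%. The median log2 difference, clone #1 minus clone #2, was 0.49 among the former and -0.41 among the latter, and 0.01 over all transcripts. Differences of at least 2-fold were fewer, at 4995 (3.79%) higher in clone #1 and 2996 (2.27%) higher in clone #2. At 4-fold they numbered 1513 (1.15%) and 597 (0.452%), so large differences lay more often on the side of clone #1. The balance of the 2 directions depended on the scaling: by library totals alone, without TMM factors, 39864 were higher in clone #1 and 22749 higher in clone #2. DESeq2 called 18208 and 21764.

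Clone #2 lay nearer to wild type than clone #1 did in RNA-seq. Against wild type, 55695 transcripts (42.2%) differed in clone #1 and 19665 (14.9%) in clone #2. With every library thinned to 79851240 counts, the total of the smallest, the numbers were 49303 and 19312 of 130857. At that same depth 159835 and 158458 transcripts had a count in clone #1, 155677 and 155954 in wild type, and 154181 and 154617 in clone #2. In TCP-seq, where clone #2 had the deepest libraries, the order was the reverse, with 2889 calls for clone #1 and 9879 for clone #2 against wild type, and 2245 and 5879 after thinning.

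A transcript was counted as apart in 1 clone where it was called between the clones and between that clone and wild type in the same direction, at least 4-fold in both, while the other clone stayed within 1.5-fold of wild type. 404 transcripts (305 groups that share reads, 0.306% of those tested) were apart and higher in clone #1, and 276 (223 groups, 0.209%) were apart and lower in clone #1. In clone #2, 21 (17 groups, 0.0159%) were apart and higher and 120 (85 groups, 0.0909%) apart and lower. Most members were rare RNAs. The median transcript of those higher in clone #1 stood at 0.448 and 0.507 CPM there, and at 0.0456 to 0.0503 CPM in the other 4 libraries. The median of those lower in clone #2 stood at 0.0124 and 0.0172 CPM there, and at 0.194 to 0.208 CPM in wild type and clone #1. At 2-fold in place of 4-fold, the classes held 1678, 1133, 201 and 349 transcripts in the same order. DESeq2 gave 12 higher and 48 lower in clone #2.

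A stricter description by level alone took transcripts with at least 1 CPM on one side and under 0.1 CPM on the other, in every library. 40 transcripts (34 groups, 0.0222% of those with a count) were on in clone #1 only, and none was on in clone #2 only. 3 transcripts (2 groups, 0.00166%) were lost in clone #1 only, and 5 (4 groups, 0.00277%) in clone #2 only. These transcripts were chosen on their RNA-seq levels, so their RNA-seq values are a description with no test. The members nearest the limits stood at 1.01 CPM in clone #1 and at 0.0917 CPM in clone #2, and raising the lower limit to 0.2 CPM brought the class on in clone #1 from 40 to 78. Without replicate 1 of clone #1, 8 transcripts in place of 3 were lost there.

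The 40 transcripts on in clone #1 were read at similar levels in the footprints of all 3 lines. Summed over 1 transcript per group, their RNA-seq level was 105.8 and 105.3 CPM in clone #1, 0.942 and 1.13 CPM in wild type, and 1.14 and 1.26 CPM in clone #2. In Ribo-seq the same sum was 612 and 610 CPM in wild type, 634 and 633 in clone #1, and 607 and 600 in clone #2. In TCP-seq it was 341 and 371 CPM in wild type, 383 and 435 in clone #1, and 350 and 360 in clone #2. Clone #1 lay far above the other lines in RNA-seq, and its Ribo-seq and TCP-seq sums were the highest of the 3 lines by a small margin, without overlap. 34 of the 40 were tested in Ribo-seq, where 5 were called higher in clone #1 and 5 lower, beside 8.83% and 9.76% of all transcripts. Their median log2 difference there was 0.06, and 32 of the 34 lay within 2-fold. In the 6 siRNA RNA-seq libraries 31 of the 40 stayed under 0.1 CPM in every library, and the highest value of any was 0.182 CPM.

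**Figure D1:**
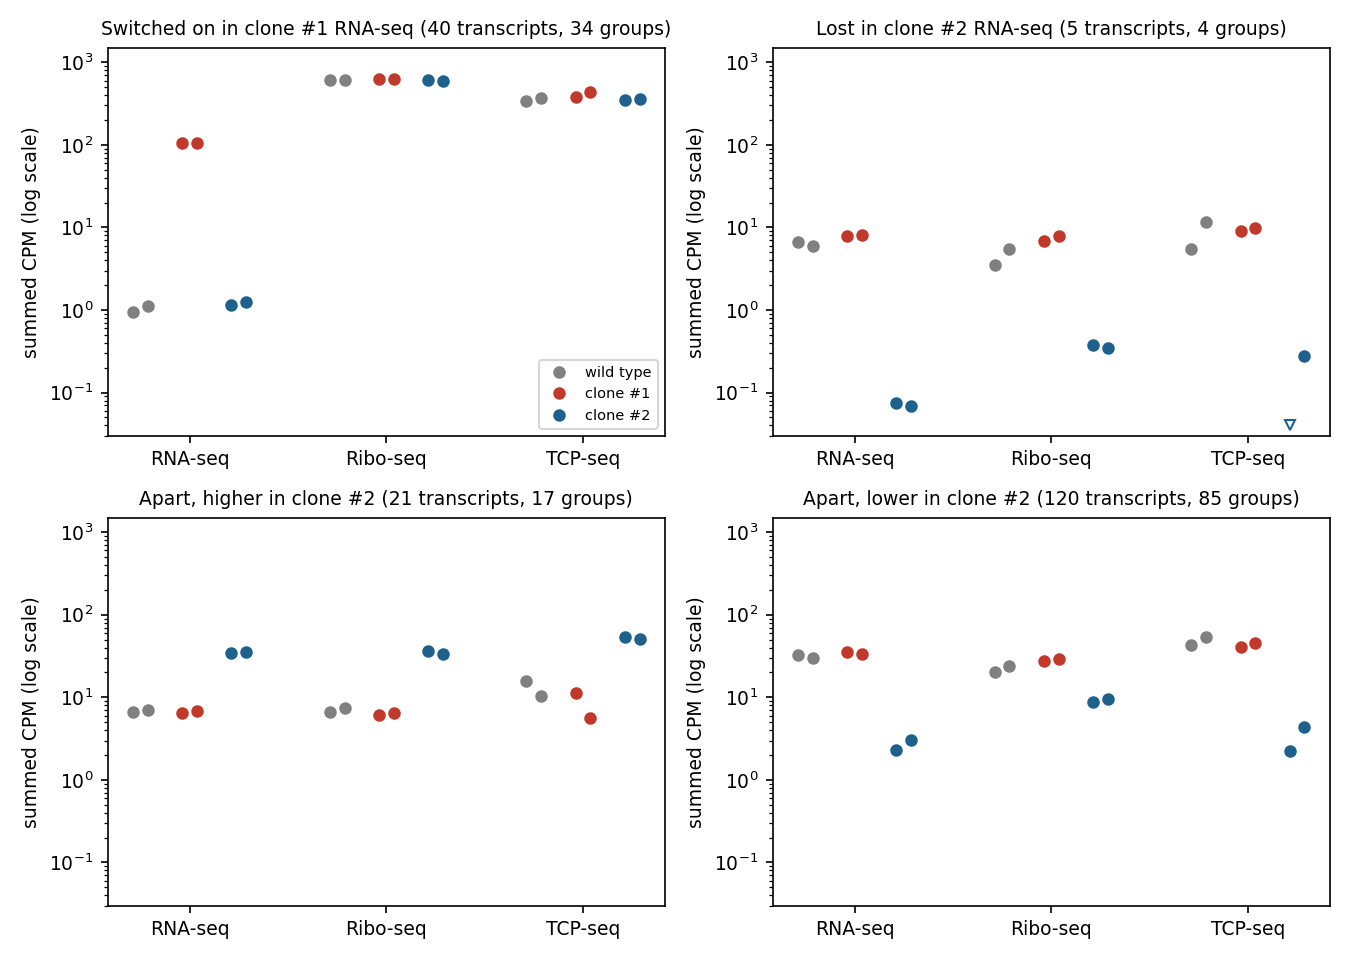
Summed level (CPM, log scale) of 4 classes of transcripts chosen in RNA-seq, with 1 point per library, 1 transcript taken per group that shares reads, and an open triangle for a library at 0. The 34 groups on in clone #1 set its RNA-seq libraries far above the other 4 and its Ribo-seq and TCP-seq libraries only slightly above them, whereas the groups lost, higher or lower in clone #2 separate that clone in all 3 assays.

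ENST00000665036.1, whose counts are identical to those of 2 other transcripts, had the highest level of those on in clone #1. It stood at 24.2 and 28.7 CPM in clone #1, at 0.0251 and 0.0342 CPM in wild type, and at 0 and 0.0803 CPM in clone #2, the last from 0 and 7 counts. The clone #1 libraries lay far from the other 4, which overlapped. Its Ribo-seq levels were 2.69 and 1.75 CPM in clone #1, 0.591 and 0.977 in wild type, and 1.29 and 1.12 in clone #2. The Ribo-seq difference between the clones was 0.89 ± 0.25 on the log2 scale (SE, edgeR adjusted p = 0.017). Its call was lost without replicate 1 of clone #1 (0.54), without replicate 1 or 2 of clone #2 (1.00 and 0.80), and by DESeq2 (adjusted p = 0.11). Without replicate 2 of clone #1 the difference was 1.16. Clone #1 exceeded wild type in Ribo-seq by 1.41 ± 0.25 on the log2 scale (SE, edgeR adjusted p = 0.00064). ENST00000665036.1 had no TCP-seq count in any of the 6 libraries.

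ENST00000557228.2 was the second by level, at 5.85 and 5.28 CPM in clone #1 against 0.0126 and 0.0456 CPM in wild type and 0.087 and 0.0229 CPM in clone #2. In Ribo-seq it was abundant in every line, at 56.3 and 48.1 CPM in wild type, 67.3 and 53.3 CPM in clone #1, and 53.2 and 49.97 CPM in clone #2. Wild type overlapped both clones, and clone #1 lay just above clone #2 without overlap. The difference between the clones was 0.23 ± 0.10 on the log2 scale (SE, edgeR adjusted p = 0.16). It became a call, at 0.39 and an adjusted p of 0.015, without replicate 2 of clone #1.

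Of transcripts with a mean of at least 1 CPM, ENST00000624491.2 and ENST00000485426.1 showed the largest differences towards clone #1. ENST00000624491.2 had 1309 and 819 RNA-seq counts in clone #1 and 0 in each of the other 4 libraries, where a count of 0 allows up to 0.0373 and 0.0344 CPM in clone #2. It was at least 266-fold higher in clone #1 than 3 counts over both libraries of clone #2 would give. Yet its Ribo-seq levels were 3.51 and 4.92 CPM in wild type, 7.26 and 4.55 CPM in clone #1, and 4.75 and 3.77 CPM in clone #2, which overlap. The Ribo-seq difference between the clones was 0.47 ± 0.29 on the log2 scale (SE, edgeR adjusted p = 0.34). It ranged from 0.10 to 0.77 with single libraries left out, and was 0.54 (edgeR adjusted p = 0.0022) with no filter on low counts. In TCP-seq the transcript stood at 37.3 to 70.6 CPM in all 6 libraries, with clone #1, at 53.8 and 70.6 CPM, above the other 4. Clone #1 exceeded clone #2 there by 0.32 ± 0.15 on the log2 scale (SE, edgeR adjusted p = 0.25). It exceeded wild type by 0.57 ± 0.17 (SE, edgeR adjusted p = 0.028). ENST00000485426.1 had 1202 and 385 RNA-seq counts in clone #1, 2 and 0 in wild type and 0 in both libraries of clone #2, at least 178-fold on the same floor. Its call between the clones (edgeR adjusted p = 0.0012) was lost without either wild type library, with adjusted p of 0.058 and 0.056. Its Ribo-seq levels lay between 9.57 and 11.7 CPM in all 6 libraries, with a difference of 0.04 ± 0.11 on the log2 scale (SE).

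All 404 transcripts apart and higher in clone #1 were then read in Ribo-seq. 255 passed the filter on low counts there, and 43 were called higher in clone #1 (16.9%, beside 8.83% of all transcripts) and 27 called lower (beside 9.76% of all). Their median log2 difference was 0.08 in Ribo-seq, against 3.35 in RNA-seq (3.18 with the 23 transcripts at 0 in clone #2 set to their bound), and 219 of the 255 lay within 2-fold. In TCP-seq, where 4.97% of all transcripts were called between the clones, 115 were tested, of which 14 were called higher in clone #1 (beside 2.42%) and 0 lower (5 at an unadjusted p under 0.05, 0 by DESeq2), with a median of 0.15. The number called in Ribo-seq hung on single libraries. It was 78 without replicate 1 of wild type Ribo-seq, 26 without replicate 1 of clone #1, 23 and 21 without replicate 1 and 2 of clone #2, and 28 and 27 without replicate 2 of the wild type or clone #2 RNA-seq. The lowest Ribo-seq level of any of the 43 was 0.251 and 0.27 CPM in clone #1, and 0 in each library of wild type and clone #2. Rare members could thus pass the filter through clone #1 alone, which favours a call higher there, so the share called is a description.

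**Figure D2:**
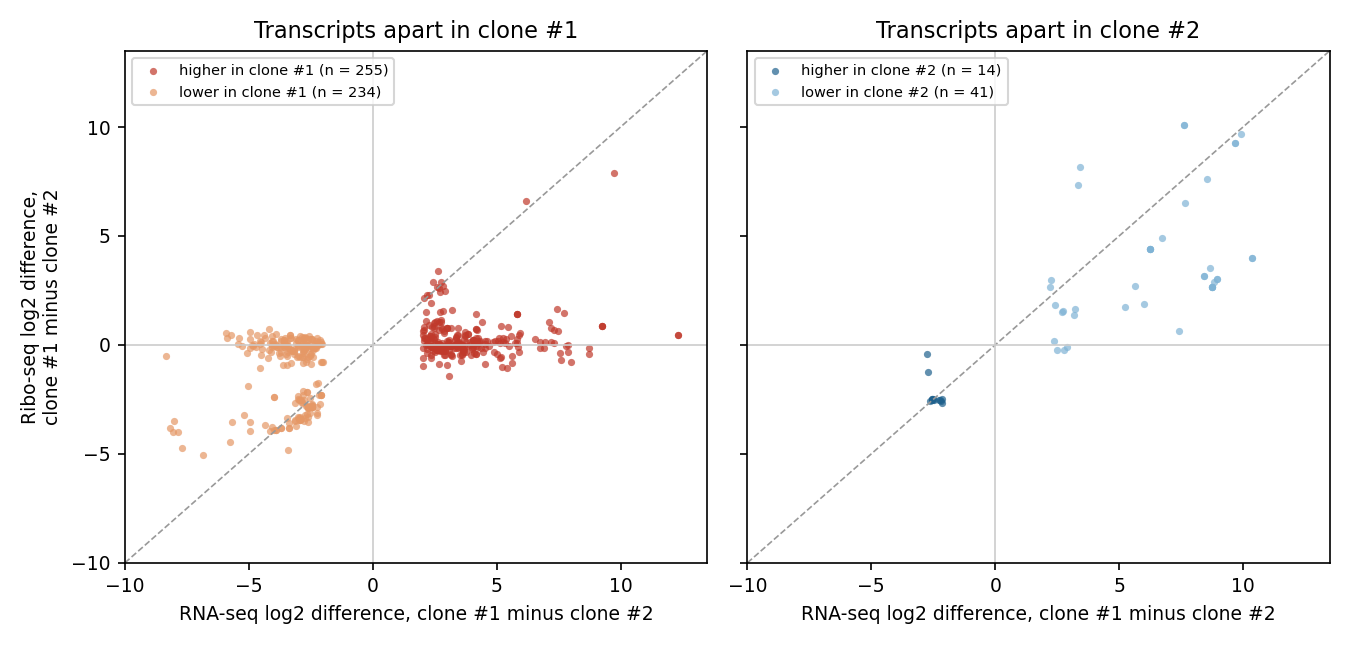
Difference between the clones (log2, clone #1 minus clone #2) in RNA-seq on the horizontal and in Ribo-seq on the vertical axis, with 1 point per transcript apart in clone #1 (left) or clone #2 (right) and tested in both assays, and a dashed line at equality. Of the 255 points higher in clone #1, 219 lie within 2-fold in Ribo-seq, the 234 lower in clone #1 form a cloud at 0 and another near the line, and most points of clone #2 lie away from 0 in both assays.

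The classes were also described by a value from outside these libraries, the ratio of Ribo-seq to RNA-seq level in the control siRNA libraries. This ratio, with 0.1 CPM added to both levels, had a median of 0.797 over the 101073 tested transcripts that reached a summed level of 1 CPM. Among those apart and higher in clone #1 the median was 40.1 (186 with a ratio). Most members of that class were rare in RNA-seq outside clone #1, so those that reached the summed level needed for a ratio tended to have a high one. For those on in clone #1, chosen for RNA-seq levels under 0.1 CPM in wild type, a high ratio follows from the choice. The median was 2.42 for those lower in clone #1, 0.854 for those lower in clone #2 and 0.473 for those higher in clone #2. Of the 694 transcripts with over 16 times as much Ribo-seq as RNA-seq signal, 125 (18%) were apart and higher in clone #1, and 33 (4.76%) were apart and lower. Of the 895 with a ratio of 4 to 16, 27 (3.02%) were apart and higher in clone #1 and more, 48 (5.36%), were apart and lower. Of the 37403 with a ratio of 0.5 to 1, 4 (0.0107%) were apart and higher and 40 (0.107%) apart and lower. None of the 694 was apart in clone #2. Transcripts with a high ratio also have low RNA-seq levels, so that a given number of added reads is a larger fold, and the part of the ratio and of the level in these differences was not tested.

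**Figure D3:**
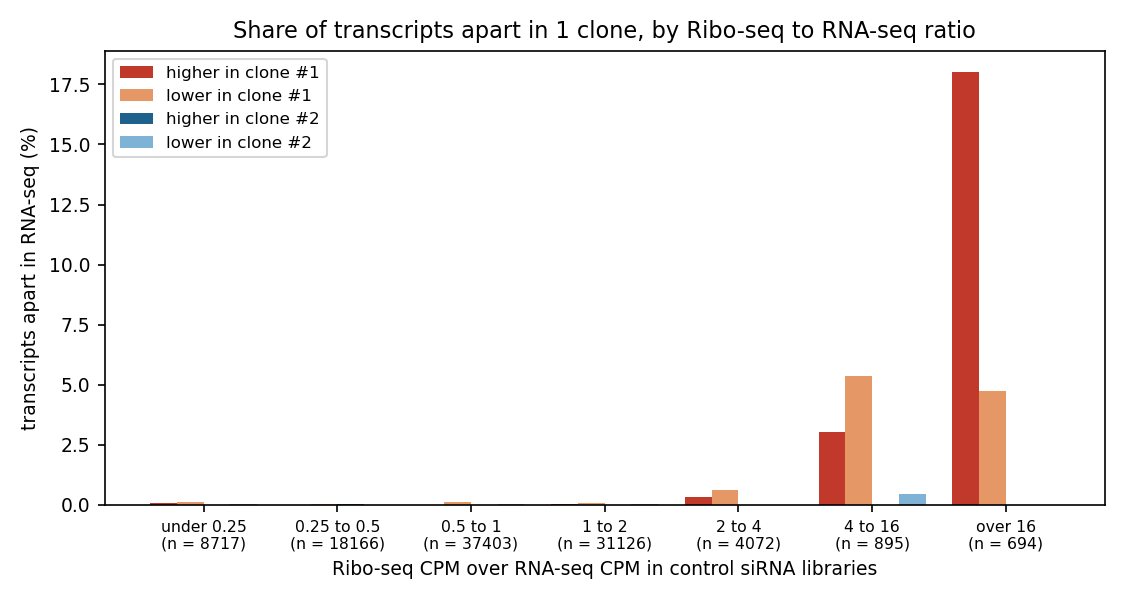
Share of tested transcripts (%) that were apart in 1 clone in RNA-seq, by the ratio of Ribo-seq to RNA-seq level in control siRNA libraries, with the number of transcripts under each bin. The share higher in clone #1 reaches 18% above a ratio of 16 and 3.02% from 4 to 16. The share lower in clone #1 is 4.76% above 16 and 5.36% from 4 to 16, where it exceeds the share higher. That lower in clone #2 is at most 0.447%, from 4 to 16.

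The 276 transcripts apart and lower in clone #1 fell into transcripts that were lower in Ribo-seq too and transcripts that were not. Of 234 tested in Ribo-seq, 103 were called lower in clone #1 (44%, beside 9.76% of all transcripts) and 14 higher (beside 8.83%), and the median log2 difference was -0.31. The lower quartile was -2.74 and the upper 0.04. With a siRNA-control ratio of Ribo-seq to RNA-seq under 4, 59 of 106 were called lower in Ribo-seq. With a ratio over 4, 11 of 81 were called lower and 11 higher. Among those too rare in the control libraries for a ratio, 33 of 47 were called lower. The median Ribo-seq level of the 103 was 0.0667 and 0.101 CPM in clone #1, and 1.54 and 1.09 CPM in wild type. Rare members could thus pass the Ribo-seq filter without clone #1, which favours a call lower there, so the shares called are a description. In TCP-seq 51 of the 276 were tested and none was called in either direction (edgeR, beside 2.56% of all transcripts higher in clone #2). At an unadjusted p under 0.05, 5 of the 51 were lower and 2 higher in clone #1, and DESeq2 called none of the 6 to which it gave an adjusted p.

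The 3 transcripts lost in clone #1 by level were present in its footprints. ENST00000574304.5 shares reads with ENST00000575830.2, also of the 3, which had a lower level and a slightly larger difference. It represents that group, the one with the largest difference towards clone #2 among called transcripts with a mean of at least 1 CPM, and stood at 3.61 and 3.58 CPM in wild type RNA-seq, 0.061 and 0.0845 CPM in clone #1, and 3.21 and 2.73 CPM in clone #2. In Ribo-seq it stood at 2.09 and 1.84 CPM in wild type, 2.02 and 1.49 CPM in clone #1, and 1.36 and 1.47 CPM in clone #2. The RNA-seq libraries of clone #1 lay apart from the other 4, and in Ribo-seq both libraries of clone #1 lay above those of clone #2, by 0.32 ± 0.21 on the log2 scale (SE, edgeR adjusted p = 0.32). ENST00000557231.2 went from 1.21 and 1.28 CPM in wild type and 1.44 and 1.19 CPM in clone #2 to 0.061 and 0.0845 CPM in clone #1. Its Ribo-seq difference was -0.58 ± 0.12 on the log2 scale (SE, edgeR adjusted p = 0.0011), from 5.16 and 5.59 CPM in clone #1 and 8.35 and 7.72 CPM in clone #2. It was the one of the 3 with a Ribo-seq call, which was at an adjusted p of 0.05 without replicate 1 of clone #2.

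ENST00000467115.1 came second by the same limits (a mean of at least 1 CPM and 1 transcript per group that shares reads) and was higher in that clone than in wild type as well. Its RNA-seq levels were 15.8 and 20.1 CPM in wild type, 0.69 and 0.904 CPM in clone #1, and 30.2 and 30.6 CPM in clone #2, and the 3 lines did not overlap. In Ribo-seq it stood at 5.00 and 8.72 CPM in wild type, 5.60 and 10.5 CPM in clone #1, and 11.9 and 14.0 CPM in clone #2. There clone #1 overlapped wild type, and its difference from clone #2 was -0.69 ± 0.48 on the log2 scale (SE, edgeR adjusted p = 0.44). Without replicate 2 of clone #1 that difference was -1.21 with an adjusted p of 0.034. In TCP-seq it was among the more abundant transcripts in every line, at 140.3 to 223 CPM.

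Losses in clone #2 were seen in all 3 assays. The 5 transcripts lost there by level (4 groups) had a summed RNA-seq level of 6.61 and 5.97 CPM in wild type, 7.95 and 8.13 CPM in clone #1, and 0.0746 and 0.0688 CPM in clone #2. Their summed Ribo-seq level was 3.47 and 5.49 CPM in wild type, 6.90 and 7.91 CPM in clone #1, and 0.373 and 0.349 CPM in clone #2. In TCP-seq they had 12 and 19 counts in wild type, 16 and 14 in clone #1, and 0 and 1 in clone #2, from totals of 3294478 and 3853825 that exceeded those of the other lines. All 5 were called lower in clone #2 in Ribo-seq (beside 8.83% of all transcripts). In the 6 siRNA RNA-seq libraries all 5 stood at 1.21 CPM or more.

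ENST00000316333.9 was the most abundant of the 5. It stood at 2.65 and 2.37 CPM in wild type RNA-seq, 3.18 and 3.45 CPM in clone #1, and 0.0373 and 0.0229 CPM in clone #2, the last from 3 and 2 counts. In Ribo-seq it stood at 1.73 and 2.16 CPM in wild type, 2.71 and 3.49 CPM in clone #1, and 0.0679 and 0.14 CPM in clone #2, a difference between the clones of 4.88 ± 0.35 on the log2 scale (SE, edgeR adjusted p = 1.2e-09). Clone #2 lay below all other libraries in both assays. ENST00000643927.1 was second, with 105 and 116 RNA-seq counts in wild type, 669 and 265 in clone #1, and 3 and 2 in clone #2. Its Ribo-seq levels were nearer to each other, at 0.473 and 0.62 CPM in wild type, 0.933 and 0.851 CPM in clone #1, and 0.305 and 0.175 CPM in clone #2. The difference between the clones there was 1.89 ± 0.36 on the log2 scale (SE, edgeR adjusted p = 6e-04), while that between clone #2 and wild type was -1.23 ± 0.43 (SE, adjusted p = 0.13).

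The wider classes of clone #2 followed the same course. Of the 120 transcripts apart and lower in clone #2, 41 could be tested in Ribo-seq, and 34 were called lower there too (82.9%, beside 8.83%) and none higher, also at an unadjusted p under 0.05 and by DESeq2. Their median log2 difference was 3.02 in Ribo-seq (2.89 with the 8 transcripts at 0 in clone #2 at their bound) and 3.17 in RNA-seq (3.08 with bounds). None passed the TCP-seq filter, but the summed TCP-seq counts of 1 transcript per group were 94 and 87 in wild type, 71 and 65 in clone #1, and 7 and 16 in clone #2. The 34 calls were 21 without replicate 2 of clone #2 Ribo-seq, 21 after thinning, and 19 by DESeq2. The lowest Ribo-seq level of any of the 34 was 0.241 and 0.203 CPM in clone #1, 0.0394 and 0.113 CPM in wild type, and 0 in clone #2. Rare members could thus pass the filter without clone #2, which favours a call lower there. The shares are therefore a description of those 41 and not of the rest of the 120.

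The 21 transcripts apart and higher in clone #2 were few and shared reads in part. 14 were tested in Ribo-seq and 12 called higher in clone #2 (85.7%, beside 9.76%), none lower, also at an unadjusted p under 0.05 and by DESeq2. The differences of these 12 lay in a narrow range, from -2.69 to -2.49 on the log2 scale in Ribo-seq and from -2.61 to -2.14 in RNA-seq. All 7 tested in TCP-seq were called higher in clone #2 (beside 2.56%), with a median of -2.22, while DESeq2 gave none of the 7 an adjusted p. Summed over groups, RNA-seq gave 6.56 and 6.98 CPM in wild type, 6.54 and 6.79 CPM in clone #1, and 34.3 and 35.3 CPM in clone #2, and Ribo-seq gave 6.62 and 7.39, 6.17 and 6.53, and 36.2 and 33.3 CPM. The 12 calls were 7 without any one of the 4 clone libraries of Ribo-seq and 7 by DESeq2. The identifiers do not tell how many genes these transcripts stem from. The lowest Ribo-seq level of any of the 12 was 0.305 and 0.245 CPM in clone #2, and 0.0256 to 0.118 CPM in the libraries of wild type and clone #1. Rare members could thus pass the filter through clone #2 alone, so the shares called are a description of those tested.

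Some transcripts of both clones thus differed in libraries that had not chosen them. Of those called in the same direction in Ribo-seq, 43 (37 groups) were higher in clone #1, 103 (69 groups) lower in clone #1, 12 (8 groups) higher in clone #2 and 34 (21 groups) lower in clone #2. The 43 were smaller in Ribo-seq than in RNA-seq, with a median log2 difference of 1.05 against 3.73 (3.38 with bounds), and 13 of them reached 4-fold in Ribo-seq. These Ribo-seq sizes are a description, since a Ribo-seq call chose the sets. The 103 had medians of -2.84 in Ribo-seq and -2.92 in RNA-seq, and 81 of them reached 4-fold in Ribo-seq, where their differences ran from -5.04 to -0.28. Their summed RNA-seq level was 226 and 217 CPM in wild type, 35.5 and 35.0 CPM in clone #1, and 249 and 248 CPM in clone #2. Their summed Ribo-seq level was 605 and 561 CPM in wild type, 364 and 374 CPM in clone #1, and 608 and 614 CPM in clone #2, so the sum fell less in Ribo-seq than in RNA-seq. In TCP-seq, which chose neither set, 4 of 8 tested transcripts of the 43 were called higher in clone #1 (beside 2.42% of all transcripts). DESeq2 called 2 of the 3 to which it gave an adjusted p. Rare members of the 43 could pass the TCP-seq filter through clone #1 alone, so that share is a description. Of the 103, 0 of 17 tested were called in either direction (edgeR, beside 2.56% of all higher in clone #2, with 8 of 17 of the same sign, 3 lower at an unadjusted p under 0.05, and no adjusted p by DESeq2).

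The same rule applied to Ribo-seq alone set clone #1 apart mainly by lower levels. There 60 transcripts (43 groups, 0.052% of 115412) were apart and higher in clone #1, 318 (192 groups, 0.276%) lower in clone #1, 15 (11 groups, 0.013%) higher in clone #2 and 27 (17 groups, 0.0234%) lower in clone #2. Of these, 24, 102, 15 and 27 were tested in RNA-seq. There 15, 75, 15 and 26 were called in the same direction and 4, 5, 0 and 0 in the opposite one, beside 22.9% of all transcripts higher in clone #1 and 23% higher in clone #2. Transcripts apart by the rule in both assays were 5 higher in clone #1 (1.24% of the RNA-seq class and 8.33% of the Ribo-seq class), 55 lower in clone #1 (19.9% and 17.3%), 7 higher in clone #2 (33.3% and 46.7%) and 6 lower in clone #2 (5% and 22.2%). In TCP-seq the rule gave none higher in clone #1, 6 (0.0141% of 42679) lower in clone #1, 7 (0.0164%) higher in clone #2 and 11 (0.0258%) lower in clone #2.

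Against the 10 other Ribo-seq libraries of the series, clone #1 had 14 transcripts (0.00661% of 211865) at least 4-fold above all of them and 30 (0.0142%) at least 4-fold below. DENR siRNA #1 had 0 and 46 (0.0217%), DENR siRNA #2 had 1 (0.000472%) and 20 (0.00944%), control siRNA 1 (0.000472%) and 9 (0.00425%), and clone #2 had 0 and 2 (0.000944%), so in Ribo-seq clone #1 had more transcripts above all others than any other pair, and fewer below all others than DENR siRNA #1.

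For 1 transcript of each kind that was apart by the same rule in both assays, chosen after the values were seen, the levels are given in full. ENST00000390689.2 stood at 0.276 and 0.228 CPM in wild type RNA-seq, 14.7 and 14.5 CPM in clone #1, and 0.211 and 0.184 CPM in clone #2. In Ribo-seq it stood at 0.118 and 0.338 CPM in wild type, 27.2 and 24.1 CPM in clone #1, and 0.17 and 0.349 CPM in clone #2. Clone #1 lay above all other libraries in both, and the TCP-seq libraries of clone #1, with 15 and 14 counts against 4 and 4 in clone #2 and 2 and 0 in wild type, also lay above the others. The TCP-seq difference between the clones was 2.88 ± 0.65 on the log2 scale (SE, edgeR adjusted p = 0.0015). The transcript passed the TCP-seq filter on low counts through clone #1 alone. That favours a call higher in clone #1, so this value is a description. In the siRNA libraries its RNA-seq level was 0.231 to 0.743 CPM.

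ENST00000221166.10 was the example for a lower level in clone #1. RNA-seq gave 19.9 and 19.3 CPM in wild type, 3.24 and 3.47 CPM in clone #1, and 26.7 and 25.8 CPM in clone #2. Ribo-seq gave 13.0 and 12.7 CPM in wild type, 1.55 and 1.70 CPM in clone #1, and 16.6 and 16.1 CPM in clone #2. Clone #1 was the lowest of the 3 lines in each, and the TCP-seq counts of 2 and 3 in clone #1, 23 and 10 in wild type, and 10 and 21 in clone #2 again placed clone #1 lowest by CPM. That TCP-seq difference between the clones, -1.52 ± 0.64 on the log2 scale (SE), had an edgeR adjusted p of 0.17. Clone #1 minus wild type was -2.41 ± 0.61 in TCP-seq (SE, edgeR adjusted p = 0.0048). The transcript passed the TCP-seq filter without clone #1, which favours a call lower there, so these values are a description.

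ENST00000405375.5 was the example for a higher level in clone #2. RNA-seq gave 3.22 and 3.13 CPM in wild type, 2.82 and 2.80 CPM in clone #1, and 16.4 and 16.2 CPM in clone #2. Ribo-seq gave 1.497 and 1.69, 1.57 and 1.54, and 9.06 and 8.45 CPM for the same lines in order. Both assays set clone #2 apart, and in TCP-seq it stood at 13.3 and 16.2 CPM against 2.12 to 5.45 CPM in wild type and clone #1, a difference of -2.22 ± 0.40 on the log2 scale (SE, edgeR adjusted p = 4.3e-05). Clone #2 was the only line to pass the TCP-seq filter in both its libraries, so that value is a description. The siRNA RNA-seq libraries, at 4.77 to 9.02 CPM, lay between clone #2 and the other lines, so this level also varied outside the clones.

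**Figure D4:**
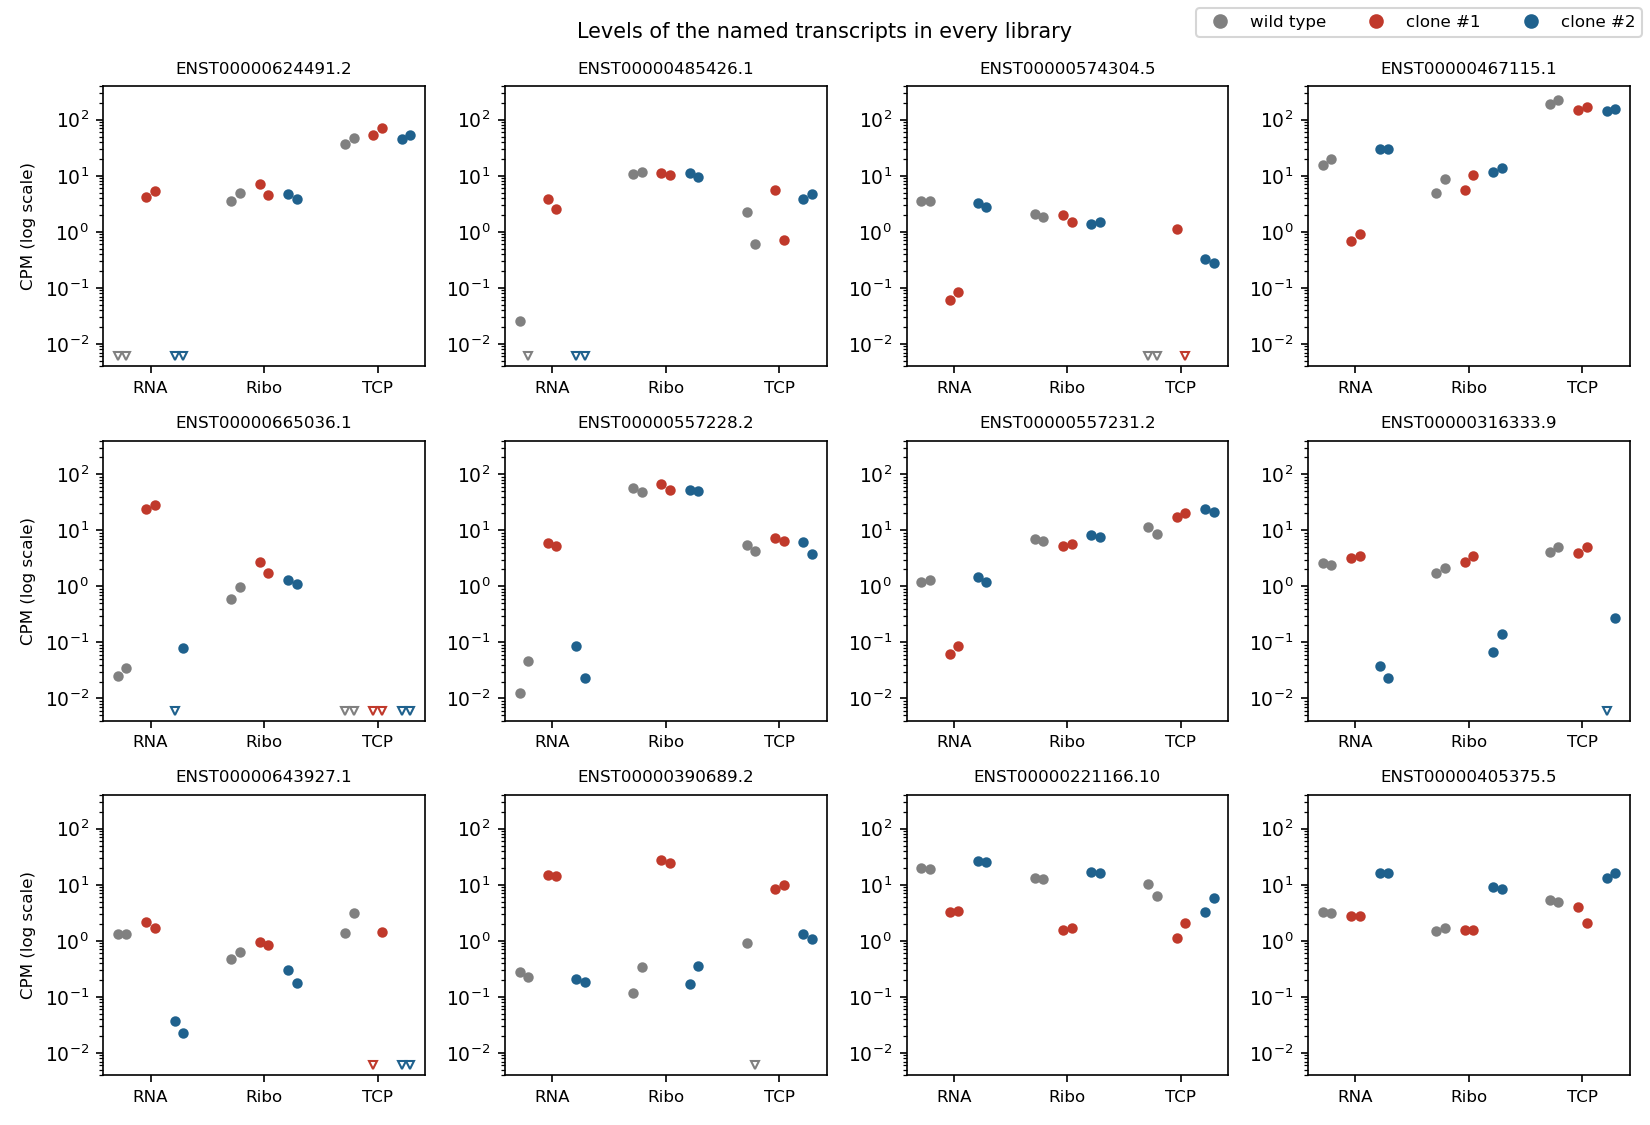
Level (CPM, log scale) of the 12 named transcripts in each library of RNA-seq, Ribo-seq and TCP-seq, with 1 point per library and an open triangle at the foot for a library at 0. ENST00000624491.2, ENST00000485426.1 and ENST00000557228.2 separate clone #1 widely in RNA-seq, while in Ribo-seq clone #1 overlaps wild type at each of them. ENST00000316333.9 and ENST00000405375.5 separate clone #2, and ENST00000390689.2 separates clone #1, in all 3 assays.

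Over all transcripts, the clone differences of the assays were related but not the same. Across 108757 transcripts tested in both, which are not independent, Spearman's rho between the RNA-seq and Ribo-seq differences was 0.57. Ribo-seq called fewer transcripts, 10189 (8.83%) higher in clone #1 and 11264 (9.76%) higher in clone #2 of 115412. Of the transcripts at least 4-fold higher in clone #1 in RNA-seq, 260 of 796 tested in Ribo-seq were called in the same direction and 51 in the opposite one. Of those at least 4-fold higher in clone #2, 221 of 396 were called the same way and 20 the opposite way, so a large RNA-seq difference was more often met by a Ribo-seq call on the side of clone #2. That order was not tested as such. In 1 model over both assays, the clone difference itself differed between RNA-seq and Ribo-seq at 6.27% of the 108757 transcripts. The Ribo-seq calls higher in clone #1 numbered 15534 without wild type replicate 1, 5290 and 5838 without replicate 1 and 2 of clone #1, 4009 and 4279 without replicate 1 and 2 of clone #2, and 5243 by DESeq2.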

How the data were processed

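Whole-number counts per transcript were made and deposited by the authors for 226882 transcript versions. The submitters' processing notes name STAR, cutadapt and featureCounts of Subread, and both hg38 and GRCh38.p13 as builds. Strand use, and the counting of reads over several transcripts, are not stated in the labels or headers. The members and lists were chosen with earlier results of these data known. The gene lists, cell markers, chromosomes and promoters in the plan could not be used, since the files do not pair transcripts with genes, and no sequence is shown.

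Each assay had 1 fit over wild type and both clones in edgeR 4.0.16 under R 4.3.3 (TMM factors, filterByExpr with a minimum count of 10, robust quasi-likelihood fit, Benjamini-Hochberg adjusted p under 0.05), tested on simulated data first. CPM were scaled by TMM, but by library totals in comparisons with siRNA libraries. A standard error is the log2 difference over the root of F. Bounds for a clone at 0 used 3 counts over both its libraries. Groups that share reads were joined where the replicate deviations of transcripts over 42 libraries correlated above 0.95. Named transcripts were the 2 largest differences in each direction among called transcripts with non-overlapping clones and a mean of at least 1 CPM, and the first 2 by level of each on or lost class. Alternatives were DESeq2 1.42.0, other scalings, filters, folds and limits, a replicate block, each library left out, and, added after the data were seen, thinning to equal depth and the counts of members called in Ribo-seq. Depth limits rare transcripts most. The filter can pass a rare transcript through the libraries of 1 line alone, so shares of rare class members called in another assay are descriptions.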

Additional observations from a re-analysis of the deposited data

Results flagged for a closer look

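The difference between the clones was not the same in RNA-seq and Ribo-seq. In 1 edgeR model over both assays, 6817 of 108757 transcripts (6.27%) had a clone difference that differed between the assays at an adjusted p under 0.05. For 3585 of them the difference, clone #1 minus clone #2, was larger in RNA-seq, and for 3232 it was smaller. The members chosen in RNA-seq enter this count through the values that chose them, so their numbers are a description. Those with a larger RNA-seq difference in the direction of their class were 211 of 255 of those apart and higher in clone #1, 145 of 234 of those lower in clone #1, 0 of 14 of those higher in clone #2 and 7 of 41 of those lower in clone #2. Among those lower in clone #1, 3 more were called the other way.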

How the results depend on the processing

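The replicate numbers did not pair the libraries, with correlations of same-numbered deviations from -0.06 to 0.07. With the number as a replicate block, RNA-seq gave 29499 transcripts higher in clone #1 and 29693 higher in clone #2, and no count moved by over 1.5 times. ENST00000467115.1 gained a Ribo-seq call, at -0.75 on the log2 scale.

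With each library left out in turn, RNA-seq calls ranged from 22322 to 30923 (higher in clone #1) and from 23403 to 30706 (higher in clone #2), and Ribo-seq calls from 4009 to 15534 and from 4725 to 15607. TCP-seq calls ranged from 488 to 1207 and from 369 to 1297, and those of at least 2-fold from 189 to 459 and from 206 to 565. Transcripts called in Ribo-seq ranged from 21 to 78 (apart and higher in clone #1), 74 to 116 (lower in clone #1), 7 to 16 (higher in clone #2) and 21 to 42 (lower in clone #2), and those lost in clone #1 from 3 to 8. The Ribo-seq difference of ENST00000485426.1, which is no call, ranged from -0.066 to 0.185 and reversed without replicate 2 of clone #2.

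DESeq2 gave 18208 RNA-seq calls higher in clone #1 and 21764 higher in clone #2. In Ribo-seq it gave 5243 and 6110 higher in clone #1 and #2, and 1014 at least 2-fold higher in clone #1. In TCP-seq it gave 404 and 281, and 27 and 19 at 2-fold. Its classes apart in clone #2 were 12 and 48, and its members called in Ribo-seq were 23 (higher in clone #1), 7 (higher in clone #2) and 19 (lower in clone #2). With no filter on low counts there were 3009 Ribo-seq calls at least 2-fold higher in clone #1, 515 TCP-seq calls higher in clone #1 (192 at 2-fold), 648 apart and higher in clone #1 and 189 lower in clone #2, and 93 and 55 of these were called in Ribo-seq. Scaled by library totals alone, RNA-seq gave 39864 calls higher in clone #1 and 22749 higher in clone #2, and TCP-seq gave 736 and 1930, and 199 and 759 at 2-fold. With all 4 wild type libraries TCP-seq gave 339 and 382 calls, and 172 and 221 at 2-fold. The cause of these shifts was not tested.

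At 2-fold the classes apart held 1678, 1133, 201 and 349 transcripts, and with the other clone held closer to wild type 230 were higher in clone #1 and 60 lower in clone #2. With limits of 2 and 0.1 CPM, 18 transcripts were on in clone #1 and 1 was lost in clone #2. With limits of 1 and 0.05 CPM, 19 were on in clone #1 and 0 lost there, and with 1 and 0.2 CPM 78 and 18. After thinning, 604 TCP-seq transcripts were called higher in clone #2 (273 at 2-fold), 21 transcripts lower in clone #2 were called in Ribo-seq, and 6 were lost in clone #1. Depth limits the TCP-seq readings most, and transcripts that failed a filter were not compared.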
